A study of Mus musculus with 10 samples.

Results

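Of the 50039 accessible regions counted in group 2 innate lymphoid cells (ILC2s), 3122 had a centre over 100 kb from every curated transcription start site (TSS). These TSS-distal regions were found by position alone, as the regions of the count table whose centre lay over 100 kb from each of 31601 RefSeq curated TSS positions of the mouse mm10 (GRCm38) assembly. A region also needed at least 1 count in the 10 libraries and under 50% of its bases soft-masked as repeats. The distance rule took 3335 regions, 8 of which had no count, and the limit on repeats removed 205 more. They had been put forward as gene-desert regions, and the annotation went partly against that name. Within the 3122, 1746 (55.9%) lay inside the body of an annotated gene, far from its start, and 1376 lay outside every gene. When the start sites of predicted transcripts were added, 964 were still over 100 kb from any start. They are therefore called TSS-distal regions here, and each is named by the genes whose start sites flank it, which says nothing about which gene it acts on.

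The study profiled chromatin accessibility by ATAC-seq, in which a transposase cuts open DNA, in ILC2s of 5 tissues, namely lung, pancreas, bone marrow (BM), and the small (SI) and large intestine (LI). Each tissue had 2 libraries of 50000 sorted cells from wild-type male C57BL/6 mice of 6 weeks of age. A library of BM, pancreas or lung cells came from a pool of 16 mice, and a library of LI or SI cells from a pool of 10. No group was treated or carried an altered allele. BM cells were sorted as Lin– ST2+ CD25+, LI, lung and pancreas cells as Lin– CD45+ CD127+ ST2+ CD25+, and SI cells as Lin– CD45+ CD127+ KLRG1+ with Thy1 intermediate per the labels and low per the study's methods. The gate thus changed with the tissue, and gate and tissue cannot be told apart. A region entered the table when it was called as a peak in both libraries of at least 1 tissue. A region low in most tissues was therefore listed through the tissue where it was high.

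ILC2s are tissue-resident lymphocytes that answer epithelial alarm signals with type 2 cytokines and that depend on the transcription factors GATA3 and RORα. Accessible DNA far from any start site often holds enhancers, short stretches where transcription factors bind and from which they can act on promoters a long way off. Genes of lineage-defining factors are commonly flanked by wide stretches with many such elements, and the use of these elements differs between cell types more than the use of promoters does.

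The central 240 bases of 8 TSS-distal regions are printed here because the tissue comparisons turn on them. Among regions called higher in 1 tissue with both of its libraries above the other 8, they are the one with the largest fold over the nearest tissue in BM, LI, pancreas and SI and the next after it in lung. The others are the region beside *Gata3* that was open in LI and the regions lowest in SI and in BM relative to the nearest tissue. All are the plus strand of the GRCm38 reference. Capitals mark matches, on either strand, to core letters of 4 factor families, which are AGATAA for the zinc finger factors of the GATA family, TGTGGT for RUNX factors, TGANTCA for AP-1 and CCGGAA or CAGGAA for ETS factors. A match is a description of the letters and no proof of binding.
BM, Sp3-Ola1, chr2:73093037-73093276: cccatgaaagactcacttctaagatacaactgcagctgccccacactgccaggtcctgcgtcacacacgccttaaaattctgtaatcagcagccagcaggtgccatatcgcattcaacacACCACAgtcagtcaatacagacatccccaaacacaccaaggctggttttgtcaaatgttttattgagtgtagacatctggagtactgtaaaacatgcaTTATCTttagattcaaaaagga
LI, Gm35244-B3galt2, chr1:143536706-143536945: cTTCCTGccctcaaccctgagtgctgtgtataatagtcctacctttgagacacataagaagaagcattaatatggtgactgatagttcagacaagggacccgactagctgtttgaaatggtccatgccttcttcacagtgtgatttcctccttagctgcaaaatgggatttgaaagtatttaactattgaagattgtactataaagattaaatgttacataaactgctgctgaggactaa
LI, Gm13219-Gata3, chr2:9776062-9776301: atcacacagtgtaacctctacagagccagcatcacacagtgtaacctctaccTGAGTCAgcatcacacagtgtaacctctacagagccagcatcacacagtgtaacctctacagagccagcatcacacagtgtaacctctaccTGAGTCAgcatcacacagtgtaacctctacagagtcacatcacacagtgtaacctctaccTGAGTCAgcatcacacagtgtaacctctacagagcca
Lung, Zmat4-Tcim, chr8:24299889-24300128: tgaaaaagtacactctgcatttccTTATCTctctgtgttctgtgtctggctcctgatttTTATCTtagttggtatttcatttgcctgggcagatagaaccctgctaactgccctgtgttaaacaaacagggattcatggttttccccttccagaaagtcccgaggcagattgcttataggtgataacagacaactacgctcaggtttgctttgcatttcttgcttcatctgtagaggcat
Pancreas, Ctnnd2-4930430F21Rik, chr15:30695903-30696142: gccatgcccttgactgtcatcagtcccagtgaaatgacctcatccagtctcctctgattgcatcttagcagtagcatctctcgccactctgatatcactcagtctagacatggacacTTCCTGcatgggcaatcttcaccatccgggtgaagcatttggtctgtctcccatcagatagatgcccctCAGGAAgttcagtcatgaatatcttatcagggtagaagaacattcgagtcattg
SI, Kirrel3-4930581F22Rik, chr9:34987199-34987438: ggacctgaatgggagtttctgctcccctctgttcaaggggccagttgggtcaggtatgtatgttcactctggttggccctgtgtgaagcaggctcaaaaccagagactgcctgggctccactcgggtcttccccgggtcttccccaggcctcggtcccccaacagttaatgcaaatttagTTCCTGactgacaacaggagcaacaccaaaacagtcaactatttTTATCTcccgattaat
Lowest in SI, Gm32815-Diaph3, chr14:86646759-86646998: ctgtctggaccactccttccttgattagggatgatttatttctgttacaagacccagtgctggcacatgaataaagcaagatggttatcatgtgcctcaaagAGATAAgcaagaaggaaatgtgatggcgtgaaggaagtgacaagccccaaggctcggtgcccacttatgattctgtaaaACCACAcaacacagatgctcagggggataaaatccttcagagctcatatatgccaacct
Lowest in BM, Slc17a6-Gas2, chr7:51725022-51725261: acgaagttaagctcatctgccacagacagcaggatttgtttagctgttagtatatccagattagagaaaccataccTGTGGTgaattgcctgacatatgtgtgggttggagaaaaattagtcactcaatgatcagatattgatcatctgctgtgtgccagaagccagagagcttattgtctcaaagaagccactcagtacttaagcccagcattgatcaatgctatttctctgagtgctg

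The 8 windows held few of these matches. The BM window held 1 GATA and 1 RUNX match, the lung window held 2 GATA matches, and the pancreas window held 2 ETS matches. The window beside *Gata3* stood apart because it held 3 AP-1 matches within a unit that repeats along the sequence.

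Compared with the table as a whole, the TSS-distal regions were of ordinary width but poorer in G and C and shallower. Their median width was 521 bases against 532 over all regions tested, and the widest had 1522 bases. Their median GC content was 44.8%, against 49.8% over all regions, 47.2% at 10 to 100 kb from a TSS and 62.8% within 1 kb. Their ratio of observed to expected CpG had a median of 0.209, against 0.295 over all regions. The median summed count over 10 libraries was 983, against 1071 at 10 to 100 kb and 5239 within 1 kb of a TSS. These differences in base composition and depth run beside every comparison with other classes that follows. Of the 3122 regions, 3013 matched a single place in the assembly and 108 matched at least 2 places at 90% identity or more, where reads cannot be assigned with confidence, and 1 had no match on these terms.

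They fell into 879 gaps between neighbouring start sites, of which 349 held a single region and 70 held 10 or more. Those 70 gaps held 1073 of the regions. The median gap was 494 kb wide and the median distance to the nearest TSS was 150 kb. The farthest region, Got2-Gm15679 on chromosome 8, lay 1493 kb from any start and had 0.697 to 4.42 CPM (the count scaled to a common library size after TMM normalization) in the 10 libraries, with no tissue apart from the rest (edgeR F test, adjusted p = 0.993). The next farthest, Gm20268-Cdh20 at 1472 kb, was open in all libraries and highest in BM, with 42.0 and 47.7 CPM in BM against 16.6 to 33.4 CPM elsewhere (edgeR F test, adjusted p = 0.00123).

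The 10 libraries held 10282987 to 32797872 counts in the table. TSS-distal regions took 4.31 to 8.88% of them, with a median of 3.91 to 5.69 CPM per region, against 6.35 to 7.85 CPM over all regions and 19.8 to 26.6 CPM within 1 kb of a TSS. Much of that share came from few regions. The 8 whose sequence resembles mitochondrial DNA took 1.10 to 5.55% of all counts, and without the 10 highest regions the share was 2.24 to 3.12%. Replicates of a tissue correlated at Pearson 0.903 (SI) to 0.952 (lung) over the 3122 regions on a log2 scale, and replicates differed by more than counting noise, with a chi-square of 12.8 (lung) to 56.0 (LI) per degree of freedom over all regions. On promoters, each of 9 ILC2 markers had a region within 1 kb of its start, with a summed level of 268 to 400 CPM in every library. A region can be listed through 1 tissue, and single markers could be low, as *Il1rl1* in SI with 4.53 and 3.55 CPM. Sums over different numbers of genes are not compared with each other here. Of 5 T cell and 5 myeloid markers, 2 each had a region, summing to 8.63 to 16.5 and 18.5 to 39.8 CPM, and of 4 epithelial markers 3 did, at 9.88 to 30.7 CPM. No marker of B cells, mast cells and basophils, ILC1s and NK cells, ILC3s, pancreatic acinar cells, lung epithelium or endothelium had one. Of 3 erythroid markers, *Gata1* and *Klf1* had none, while the promoter of *Hbb-bt*, an adult β-globin gene, had 8.61 and 5.25 CPM in BM against 0.209 to 1.73 CPM elsewhere.

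More TSS-distal regions differed among the 5 tissues than regions of any class nearer to a start. In edgeR's quasi-likelihood F test across all 49981 regions with a count, 1910 of the 3122 (61.2%) had an adjusted p under 0.05 (Benjamini-Hochberg), where the background was 44.2% of all regions tested. The share was 28.6% within 1 kb of a TSS and 51.5% at 10 to 100 kb. It was larger with distance up to the 100 kb limit, through 44.6% at 1 to 10 kb, 50.4% at 10 to 50 kb and 57.8% at 50 to 100 kb, and it went on at 60.2%, 58.0%, 62.7%, 69.8% and 63.2% in 5 bins beyond it. The limit of 100 kb thus marked no step, and the last bins held only 281 and 144 regions. Regions outside every gene and inside gene bodies had similar shares, 63.6% and 59.3%. The difference from other classes was seen at each depth. Among regions with a summed count of 500 to 750, 53.3% of TSS-distal regions differed, against 39.7% of those at 1 to 100 kb and 30.7% within 1 kb. Among regions with 3000 or more counts the shares were 60.6%, 52.3% and 28.2%. These shares describe the classes, and no test between classes was made because regions are not replicates of a tissue.

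**Figure D1:**
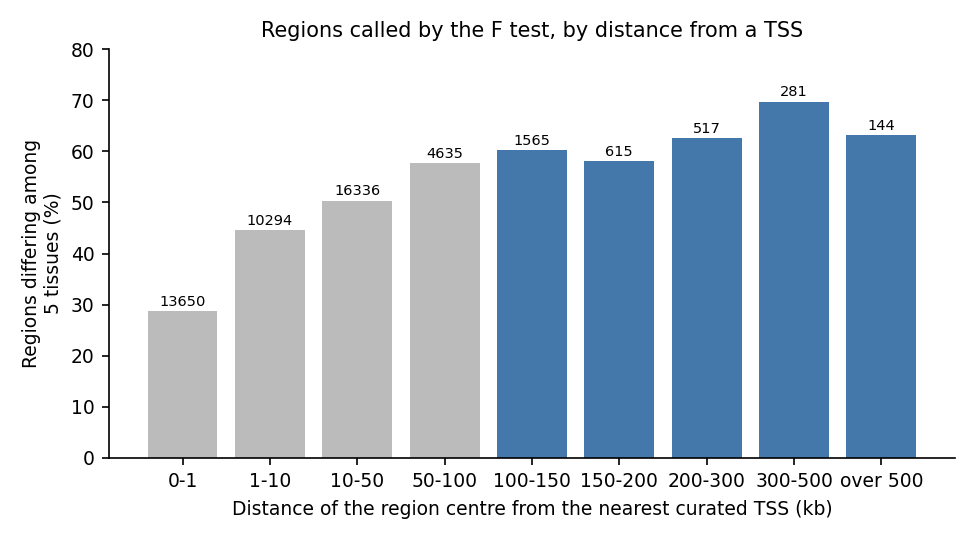
Share of regions that differed among the 5 tissues (y axis, %, edgeR F test, adjusted p under 0.05) by distance of the region centre from the nearest curated TSS (x axis, kb), with TSS-distal regions in blue, nearer regions in grey and the number of regions above each bar. The share climbs from 28.7% at 0 to 1 kb to 57.8% at 50 to 100 kb and lies between 58.0% and 69.8% beyond 100 kb.

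The size of the differences followed the same order. Between the highest and the lowest tissue mean, the median TSS-distal region spanned 1.42 on the log2 scale, against 1.16 at 10 to 100 kb and 0.64 within 1 kb of a TSS. A range of over 2-fold was seen in 2165 TSS-distal regions (69.3%, against 58.2% at 10 to 100 kb and 16.7% within 1 kb). A range of over 4-fold was seen in 936 (30.0%, against 20.9% and 2.67%). The spread between replicates was larger too, with a median SD of 0.28 (log2) within a tissue against 0.18 within 1 kb. LI was the tissue with the highest mean in 858 TSS-distal regions (27.5%, against 19.0% at 10 to 100 kb and 15.9% of all regions) and the lowest in 168 (5.38%, against 16.2% of all). BM was the lowest in 990 (31.7%, against 31.3% at 10 to 100 kb and 26.2% of all) and SI in 899 (28.8%, against 22.5% and 20.6%).

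The widest contrast between 2 tissues was BM against LI. In edgeR, 954 TSS-distal regions were higher in LI than in BM (30.6%, background 18.3%) and 246 were higher in BM (7.88%, background 12.6%), all at adjusted p under 0.05. Pancreas against BM had the same form, with 749 regions higher in pancreas (24.0%, background 14.3%) and 202 higher in BM (6.47%, background 9.89%). The 2 intestinal tissues also differed. LI was above SI in 512 regions (16.4%, background 6.9%), and SI was above LI in 33 (1.06%, background 1.53%). Pancreas was above SI in 703 (22.5%, background 12%), and SI was above pancreas in 246 (7.88%, background 8.45%). LI was above lung in 522 (16.7%, background 8.18%) and lung above LI in 106 (3.4%, background 2.72%). The other pairs were more even or had fewer calls. Lung and SI had 515 regions higher in lung (16.5%, background 9.86%) and 469 higher in SI (15%, background 11.1%). SI against BM had 614 and 470 (19.7% and 15.1%, backgrounds 15.1% and 10.7%), and lung against BM had 565 and 385 (18.1% and 12.3%, backgrounds 11.5% and 7.56%). Pancreas was above lung in 276 (8.84%, background 4.2%) and below it in 70 (2.24%, background 1.62%). LI and pancreas were closest in calls, with 113 and 67 (3.62% and 2.15%, backgrounds 2.01% and 1.25%). In all, 2217 TSS-distal regions (71.0%, background 55.9%) passed in at least 1 pair and 905 in none.

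A shift of the whole class ran beside these calls. The median log2 difference of the TSS-distal regions, taken relative to the median of all regions, was −0.44 for BM minus LI, −0.32 for BM minus pancreas, 0.32 for LI minus lung, 0.39 for LI minus SI and 0.32 for pancreas minus SI. Promoters moved the other way in these pairs, with a median of 0.27 for BM minus LI. When a smooth trend in GC content and width was removed from each library, the same 5 medians were −0.18, −0.11, 0.16, 0.25 and 0.18. Scaling by library size alone moved the median of all regions by up to 0.25 and left the medians of TSS-distal regions relative to it between −0.44 and 0.38. In pooled cells, fewer cells with an open region and less opening per cell cannot be told apart.

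Calls for a single tissue were regions higher than in each of the other 4 tissues at an unadjusted p under 0.05 in every contrast, or lower likewise. Of the 3122 regions, 972 (31.1%, background 21.9%) had at least 1 such call. The calls ran mostly downwards for BM, lung and SI, and upwards for LI and pancreas. BM had 131 higher (4.20%, background 4.5%) and 319 lower (10.2%, background 6.63%), and SI had 58 higher (1.86%, background 2.8%) and 212 lower (6.79%, background 3.59%). Lung had 48 higher (1.54%, background 1.3%) and 113 lower (3.62%, background 1.72%). LI had 106 higher (3.4%, background 1.3%) and 1 lower (0.032%, background 0.132%), and pancreas had 92 higher (2.95%, background 1.43%) and 27 lower (0.865%, background 0.572%). The 8 mitochondrial-like regions supplied 7 of the LI-higher and 7 of the lung-lower calls. Their summed level was 52136 and 55755 CPM in LI and 9898 and 14815 CPM in lung, which leaves 99 and 106 calls without them.

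**Figure D2:**
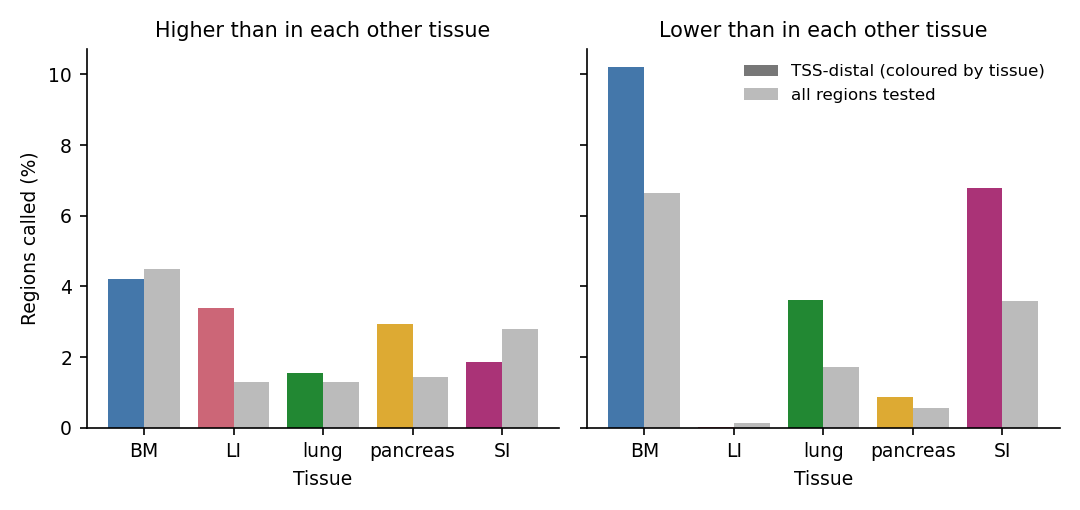
Share of regions called higher (left) or lower (right) in 1 tissue than in each of the other 4 (y axis, %, edgeR, unadjusted p under 0.05 in each contrast), for the 3122 TSS-distal regions (coloured) and all 49981 regions tested (grey). The tallest bars are the 10.2% lower in BM and the 6.79% lower in SI, and LI has 3.4% higher and a single region lower.

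The split between higher and lower moved with the scaling, and in lung it turned. In lung it turned over all regions too, from 1.3% higher and 1.72% lower with TMM to the backgrounds given next. With library size alone, the numbers higher and lower were 93 and 64 in lung (2.98% and 2.05%, backgrounds 2.57% and 0.924%). They were 122 and 146 in SI (3.91% and 4.68%, backgrounds 5.24% and 2.17%) and 118 and 396 in BM (3.78% and 12.7%, backgrounds 2.61% and 8.19%). Pancreas had 60 and 35 (1.92% and 1.12%, backgrounds 0.896% and 0.794%) and LI 66 and 4 (2.11% and 0.128%, backgrounds 0.758% and 0.284%). With the trend in GC content and width removed they were 89 and 82 in lung (2.85% and 2.63%, backgrounds 2.11% and 1.35%). They were 98 and 206 in SI (3.14% and 6.6%, backgrounds 3.57% and 3.52%) and 250 and 253 in BM (8.01% and 8.1%, backgrounds 5.43% and 5.33%). Pancreas had 64 and 46 (2.05% and 1.47%, backgrounds 1.14% and 0.81%) and LI 62 and 3 (1.99% and 0.0961%, backgrounds 0.806% and 0.344%). With a trend in mean count removed, a setting chosen after the data were seen, they were 90 and 82 in lung (2.88% and 2.63%, backgrounds 1.93% and 1.31%). They were 81 and 246 in SI (2.59% and 7.88%, backgrounds 3.41% and 3.91%) and 189 and 278 in BM (6.05% and 8.9%, backgrounds 4.79% and 5.71%). Pancreas had 77 and 38 (2.47% and 1.22%, backgrounds 1.38% and 0.756%) and LI 81 and 1 (2.59% and 0.032%, backgrounds 1.02% and 0.344%). LI and pancreas kept more calls higher and BM and SI more calls lower in these 3 settings, although BM was nearly even without the GC trend. Over all regions LI and pancreas also had more calls higher in these settings, so this is not particular to TSS-distal regions. Single libraries also carried some counts. Without BM replicate 1 the share higher in BM was 2.56%, without lung replicate 2 the shares higher and lower in lung were 0.705% and 1.70%, and without pancreas replicate 1 the share higher in LI was 2.24% and that lower in pancreas 0.48%. Without pancreas replicate 2 the share higher in pancreas was 1.31%.

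The 3 regions described for each tissue had the largest fold over the nearest tissue among those whose 2 libraries both lay above the other 8, so that the absence of overlap is by choice. In BM they were almost closed elsewhere. Sp3-Ola1 (chr2:73092906-73093406, inside *Ola1* and 113 kb from its nearest TSS) had 6.61 and 3.45 CPM in BM and 0.166 to 0.785 CPM in the other 8 libraries. Its log2 difference was 3.47 ± 0.75 (SE) over pancreas, the nearest tissue, and its largest adjusted p over the 4 contrasts in edgeR was 0.00354. *Sp3* encodes a zinc finger factor that binds GC boxes. Gadd45a-Serbp1 (chr6:67161564-67162064), which lies between a DNA damage response gene and an mRNA-binding protein gene, had 13.8 and 6.07 CPM in BM against 0.414 to 1.31 CPM elsewhere, a log2 difference of 3.29 ± 0.54 over pancreas. Mir205hg-4930503O07Rik (chr1:193664514-193665014) had 9.74 and 4.37 CPM against 0.0697 to 1.39 CPM, a log2 difference of 3.24 ± 0.73 over LI. In each of the 3, BM replicate 1 was about 2-fold above replicate 2. Over the 131 BM-specific regions the median ratio of replicate 1 to replicate 2 was 1.11, against 0.980 over the 3122. The *Hbb-bt* promoter, also higher in replicate 1, moves with these regions, and its part in them was not tested.

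The reverse pattern was more frequent in BM. Slc17a6-Gas2 (chr7:51724889-51725393, outside every gene) had 0.440 and 0.368 CPM in BM, 2.79 and 5.29 CPM in SI and 10.5 to 17.8 CPM in LI, lung and pancreas. It was the lowest in BM relative to the nearest tissue, with a log2 difference of −3.32 ± 0.40 against SI (largest adjusted p in edgeR 3.05e-05). The libraries of BM and of the other tissues did not overlap in 316 of the 319 regions called lower in BM, which largely follows from the call itself. The median log2 difference of these regions from the nearest tissue was 1.25 in size.

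LI-specific regions included one in the stretch between *Gm13219* and *Gata3*, the gene of the factor that defines ILC2s. It lies at chr2:9775886-9776477, 102 kb from the *Gata3* start, and had 39.1 and 28.1 CPM in LI. Pancreas was next with 8.13 and 9.49 CPM, and BM, lung and SI had 1.38 to 3.27 CPM. The log2 difference over pancreas was 1.93 ± 0.31 (largest adjusted p in edgeR 0.00317). This is the region whose window, printed above, repeats a unit with AP-1 matches. Gm35244-B3galt2 (chr1:143536575-143537075), beside a galactosyltransferase gene, had 11.5 and 7.95 CPM in LI against 0.994 to 3.45 CPM elsewhere, and its log2 difference of 1.99 ± 0.40 over BM was the largest of these in LI. Ggh-Nkain3 (chr4:20348885-20349385) had 7.93 and 9.77 CPM against 1.53 to 3.34 CPM, a log2 difference of 1.8 ± 0.39 over pancreas. Both LI libraries lay above all others in 97 of the 99 LI-specific regions that are not mitochondrial-like. The choice of the 3 required this, and for the rest it largely follows from the call itself. The only region lower in LI, Gm4668-Rbms3, had 9.15 and 10.3 CPM against 14.9 to 21 CPM, and its largest adjusted p was 0.0602 in edgeR.

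In the lung-specific regions described here the nearest tissue still showed counts. Mtpap-Jcad on chromosome 18 had 20.1 and 34.8 CPM in lung, 5.11 to 9 CPM in BM and pancreas and 0.722 to 2.79 CPM in LI and SI, a log2 difference of 1.96 ± 0.38 over BM. Zmat4-Tcim (chr8:24299695-24300321) had 22.2 and 24.4 CPM in lung, 5.09 to 6.58 CPM in BM and pancreas and 0.557 to 3.23 CPM in LI and SI. Its log2 difference was 1.92 ± 0.30 over pancreas (largest adjusted p in edgeR 0.00222). Smyd2-Prox1 (chr1:190067165-190067665) had 5.53 and 8.23 CPM against 0.289 to 2.16 CPM, with *Prox1*, a homeobox gene, on 1 side. Among regions lower in lung, Sall1-Tox3 (chr8:89663838-89664338) had 0.235 and 0.193 CPM against 0.610 to 3.85 CPM, a log2 difference of −2.26 ± 0.72 from BM, the nearest tissue. That call failed without LI replicate 2 and with the trend in mean count removed, where the log2 differences were −1.49 and −0.98.

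Pancreas-specific regions were lowest in SI in each of the 3 chosen in the same way. Ctnnd2-4930430F21Rik (chr15:30695772-30696272, inside *Ctnnd2*, which encodes δ-catenin) had 6.48 and 8.84 CPM in pancreas, 0.578 and 0.523 CPM in SI and 1.08 to 2.12 CPM in the other 3 tissues. Its log2 difference over LI was 2.1 ± 0.44 (largest adjusted p in edgeR 0.0146). The same gap held 5 TSS-distal regions, 4 of them higher in pancreas, against 2.95% of TSS-distal and 1.43% of all regions. Trps1-Gm19303 (chr15:51248635-51249135) had 5.54 and 9.06 CPM against 0.289 to 2.04 CPM, and Npy-Mpp6 (chr6:49987619-49988119), beside the neuropeptide Y gene, had 9.48 and 9.38 CPM against 0.209 to 3.05 CPM. Both pancreas libraries lay above all others in all 92 regions called higher in pancreas, which largely follows from the call itself. In the other direction, Prl5a1-Mir6368 (chr13:28417464-28418011) had 1.30 and 2.91 CPM in pancreas against 7.48 to 19.1 CPM, a log2 difference of −2.23 ± 0.42 from lung. Its gap held 6 regions, 5 of them lower in pancreas, against 0.865% of TSS-distal and 0.572% of all regions.

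The largest fold of all single-tissue calls outside the mitochondrial-like regions was a low level in SI. Gm32815-Diaph3 (chr14:86646611-86647145), 347 kb from a start and outside every gene, had 1.11 and 0.871 CPM in SI, 11.7 and 10.9 CPM in LI, and 24.8 to 72.7 CPM in BM, lung and pancreas. The log2 difference was −3.52 ± 0.34 from LI, the nearest tissue (largest adjusted p in edgeR 2.05e-05), and −6.12 from pancreas. It matched 1 place in the assembly. Regions higher in SI had smaller folds. Kirrel3-4930581F22Rik (chr9:34987068-34987568, inside the adhesion gene *Kirrel3*) had 4.14 and 7.70 CPM in SI against 0.331 to 1.92 CPM, a log2 difference of 2.38 ± 0.62 over LI. Dleu2-Dleu7 (chr14:62170250-62170750) had 6.88 and 8.43 CPM against 0.414 to 2.37 CPM, and Spring1-Med13l (chr5:118361723-118362223) had 13.0 and 8.36 CPM against 0.883 to 3.57 CPM. SI cells were the only ones sorted without ST2, and the promoter of *Il1rl1*, which encodes ST2, had 4.53 and 3.55 CPM in SI against 10.4 to 41.9 CPM elsewhere.

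**Figure D3:**
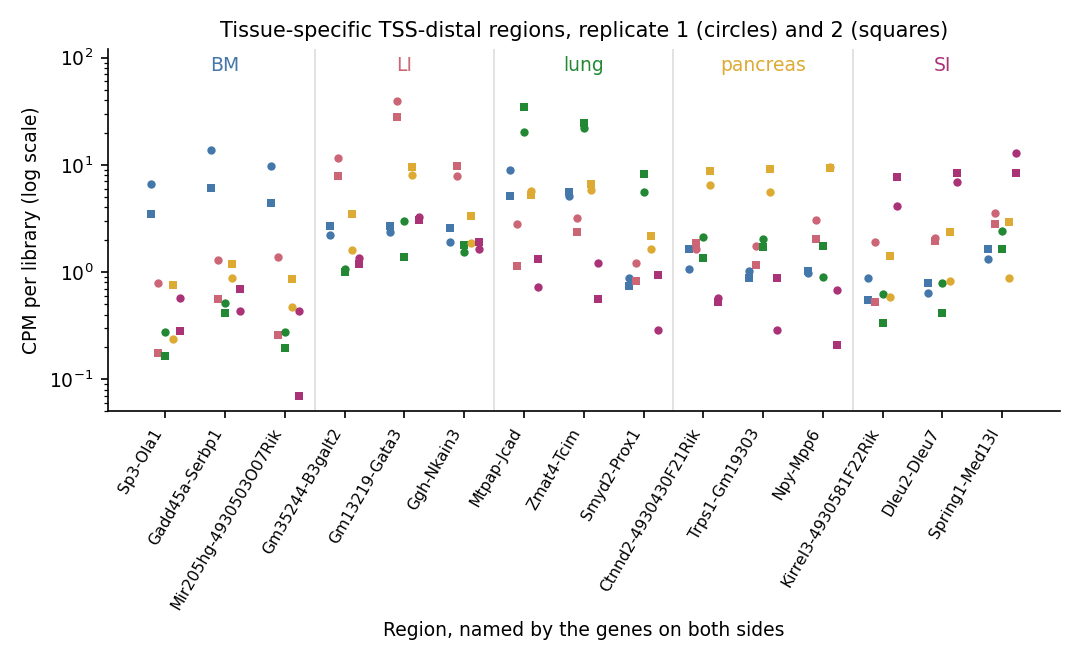
Level of the 3 regions with the largest fold over the nearest tissue in each of the 5 tissues (y axis, CPM, log scale), among those with both libraries above the other 8, with circles for replicate 1, squares for replicate 2 and colours for the tissues. The choice of the 15 regions sets which libraries lie on top, and the distance to the next library is seen to vary, as for Sp3-Ola1 in BM (6.61 and 3.45 against at most 0.785 CPM).

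Regions shared by the intestine were those in which LI and SI each differed from BM, lung and pancreas in the same direction, over 6 contrasts. Of the TSS-distal regions, 101 were higher (3.24%, background 2.18%) and 31 were lower (0.993%, background 0.874%). Without pancreas replicate 1 the share higher was 1.76%. 5033430I15Rik-Stmnd1 (chr13:46159234-46159765, outside every gene) had 16.9 and 29.1 CPM in LI and 38.5 and 66.7 CPM in SI, against 0.662 to 3.56 CPM elsewhere. Its smallest log2 difference was 3.01 ± 0.42 (largest adjusted p in edgeR 0.00139). Bcl2l11-Gm14010 (chr2:128306542-128307042) lies inside *Morrbid*, a long non-coding RNA gene near *Bcl2l11*, the gene of the pro-apoptotic protein Bim. It had 6.19 and 2.82 CPM in LI and 7.37 and 1.81 CPM in SI against 0.331 to 1.24 CPM, but replicates were far apart and its largest adjusted p was 0.0926 in edgeR. Wwox-Maf (chr8:114839999-114840505, inside *Wwox*) was lower in the intestine, with 1.74 and 1.74 CPM in LI and 0.674 and 0.557 CPM in SI. BM had 19.5 and 22.7 CPM there, lung 12.4 and 8.56 CPM and pancreas 6.54 and 4.75 CPM.

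Some gaps held many TSS-distal regions that were called in the same direction, and those described next were chosen after their values were seen, apart from the gap with most regions. Their counts are to be read against the 61.2% of TSS-distal and 44.2% of all regions that differed among tissues, and the 6.79% and 3.59% that were lower in SI. The same shares were 10.2% and 6.63% for calls lower in BM and 2.95% and 1.43% for calls higher in pancreas. The gap with most regions, Inpp4b-Il15, spans 1060 kb between a phosphoinositide phosphatase gene and the gene of interleukin 15, a survival factor of lymphocytes. It held 44 regions, all inside a gene, of which 23 differed among tissues and 6 were lower in SI. Of the other calls there, 2 were higher in pancreas, 1 was higher in BM and 1 lower in BM. The 6 lower in SI were 3 to 8 when single libraries were left out, with 3 without SI replicate 1, and 3 to 7 under other scalings or the block, with 3 for library size alone. In the gap between *Map3k7* and *Bach2*, the gene of a repressor that restrains effector programmes in lymphocytes, 17 of 21 regions differed. There 9 were lower in SI, 5 lower in BM, 4 higher in pancreas and 1 higher in lung. For SI and pancreas, leaving out single libraries gave 6 to 10 and 2 to 7, and other scalings or the block gave 6 to 9 and 2 to 6. Summed over the 21 regions, SI had 404 and 362 CPM, BM 437 and 515, LI 548 and 647, lung 616 and 614, and pancreas 771 and 682. Pancreas was highest and SI lowest, with no overlap of either with another tissue. No region lay within 1 kb of the *Bach2* start, so its promoter could not be compared.

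Of the 21 regions of this gap, 11 were highest in pancreas and 12 lowest in SI, while 9 were lowest in BM. Regions inside *Bach2* with the order of the sums, chosen after their values were seen, are given first. At chr4:32309402-32309943, 108 kb from the start, pancreas had 24.4 and 19.4 CPM, SI 1.40 and 1.11 CPM and the other 6 libraries 5.53 to 10.0 CPM. It was higher in pancreas (log2 1.32 ± 0.26 over LI, largest adjusted p in edgeR 0.0108) and lower in SI (−2.19 ± 0.30 from lung, 8.43e-05). At chr4:32267951-32268474, pancreas had 43.2 and 30.5 CPM, SI 5.25 and 5.4 CPM and the others 13.3 to 22.1 CPM. The most open region of the gap, chr4:32257942-32258522, varied less, with 63.0 and 85.5 CPM in SI against 104 to 172 CPM elsewhere. Other regions inside the gene had another order. At chr4:32250340-32251036 BM was lowest, with 70.6 and 73.3 CPM against 88.2 to 141 CPM elsewhere. At chr4:32279770-32280270 lung was highest, with 4.51 and 11.4 CPM against 0.652 to 3.77 CPM.

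The gap beside *Rora*, which encodes RORα, a nuclear receptor needed for ILC2 development, held 32 regions, all inside a gene. Of these, 22 differed and 7 were lower in SI (4 to 8 when single libraries were left out, 3 to 7 under other scalings or the block). Their summed level was 291 and 395 CPM in SI and 447 to 621 CPM in the other libraries. At chr9:69174630-69175169, SI had 2.12 and 2.06 CPM, BM 3.23 and 3.08 CPM, LI and lung 7.91 to 9.16 CPM and pancreas 14.5 and 13.9 CPM. The *Rora* promoter did not share the order, since its region was higher in BM, with 82.0 and 87.8 CPM against 41.3 to 69.9 CPM. At chr9:69121121-69121621 inside the gene, BM was also highest, at 9.15 and 6.21 CPM against 0.784 to 4.36 CPM.

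In the gap with *Gata3*, 12 of 17 regions differed, 5 were lower in SI (3 to 5 in both sets of alternatives) and 1 was the LI-specific region described above. Of the other calls, 1 was lower in pancreas and 2 were higher in lung, both on regions also called lower in SI. Summed over the 17, SI had 133 and 165 CPM and the other tissues 191 to 301 CPM. At chr2:9717813-9718347, SI had 3.9 and 4.15 CPM against 6.95 to 14.2 CPM. The 2 regions at the *Gata3* promoter did not differ among tissues, with a summed level of 58.3 to 91.0 CPM. In the gap with *Cxcr4*, the gene of the chemokine receptor that retains cells in the bone marrow, 12 of 15 regions differed and 4 were lower in SI (2 to 4 in both sets). Another 2 were higher in lung and 1 was lower in BM. Lung had the highest sums there, 258 and 316 CPM, and SI the lowest, 156 and 138 CPM. Lung and SI did not overlap, and lung replicate 1 was close to LI replicate 2 at 246 CPM. At chr1:128705025-128705589 lung had 60.6 and 75.4 CPM, BM 53.1 and 48.6, pancreas 40.6 and 31.6, LI 27.7 and 37.5 and SI 17.4 and 14.1 CPM. The gate of SI, the only one without ST2, runs beside the SI counts of all these gaps.

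**Figure D4:**
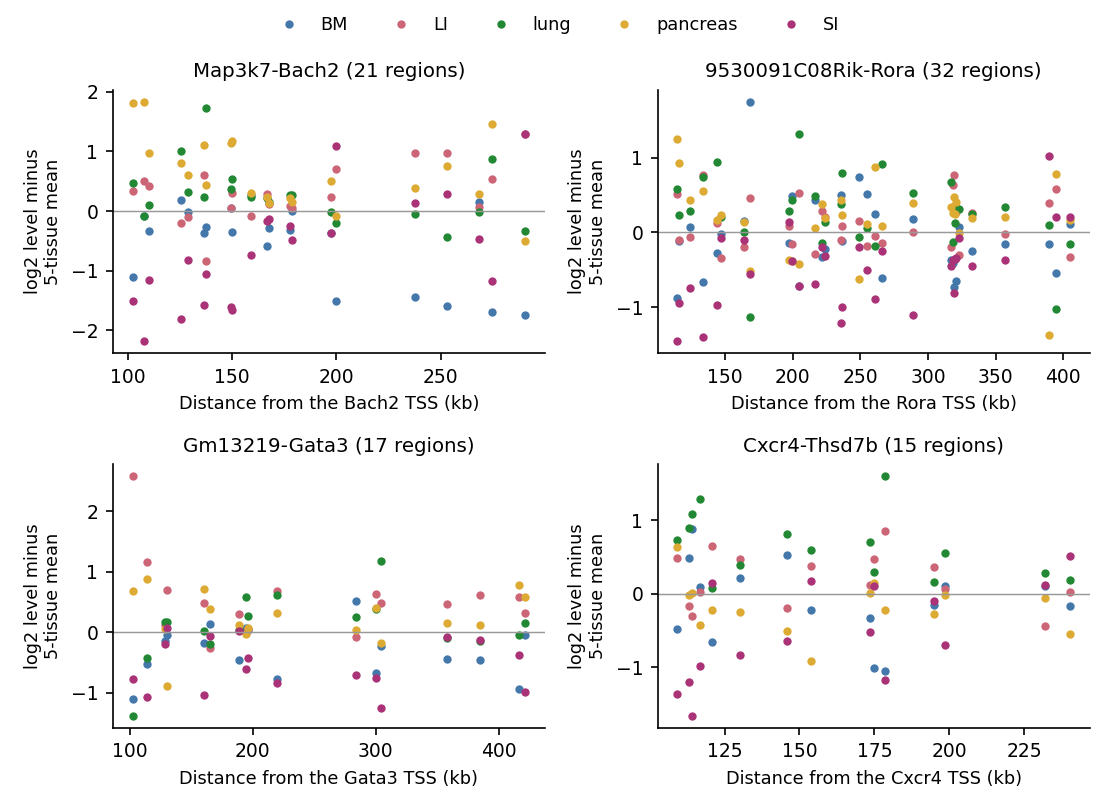
Mean log2 level of each TSS-distal region in each tissue minus its mean over the 5 tissues (y axis), by distance from the start of *Bach2*, *Rora*, *Gata3* or *Cxcr4* (x axis, kb), in the gaps with 21, 32, 17 and 15 regions. SI is the lowest tissue in 12, 16, 10 and 9 of them, against 28.8% of TSS-distal and 20.6% of all regions. BM is the lowest in 9, 6, 4 and 2. The gaps were chosen after their values were seen.

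Other gaps had more calls in another tissue than in SI. Between *Tnfsf18* and *Fasl*, which encode the ligands GITRL and Fas ligand, 9 of 10 regions were lower in BM (6 to 9 when single libraries were left out). Between *Trib2* and *Lpin1* 8 of 16, and between *Gmpr* and *Atxn1* 7 of 23, were lower in BM. The latter counts were 6 to 9 and 4 to 9 when single libraries were left out, the 4 without LI replicate 2, and 7 to 10 and 4 to 9 under other scalings or the block, the 4 with the trend in GC content and width removed. Clnk-4930513D17Rik had 5 of 16 lower in lung, Rasgef1b-Gm38691 had 5 of 11 higher in LI, and Med30-Ext1 had 4 of 14 higher in lung. The counts of Clnk-4930513D17Rik and Rasgef1b-Gm38691 were as low as 2 when single libraries were left out. *Zbtb16* encodes PLZF, a factor of ILC precursors. This gene was chosen after its values were seen. Both of its TSS-distal regions, inside the gene, were higher in BM, against 4.2% of TSS-distal and 4.5% of all regions. The first, chr9:48723487-48723987, had 27.2 and 13.3 CPM in BM and 0.478 to 3.02 CPM elsewhere, a log2 difference of 2.97 ± 0.42 over pancreas (largest adjusted p in edgeR 0.000132). The second, chr9:48733740-48734240, had 2.99 and 3.27 CPM against 0.521 to 1.19 CPM. The *Zbtb16* promoter was higher in BM as well, at 20.2 and 24.0 CPM against 5.52 to 15.4 CPM.

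Over a list of 119 genes of ILC2 factors, cytokines, receptors and homing, 35 were the nearest gene of some TSS-distal region, and these held 199 regions, of which 125 differed among tissues, close to the 61.2% of all TSS-distal regions. The 12 genes with most regions held 153, from 19 each for *Maf* and *Rora* to 7 for *Dusp6*. The calls beside single genes were few. They are to be read against the shares of TSS-distal and of all regions, 10.2% and 6.63% lower in BM and 3.4% and 1.3% higher in LI. Of 13 regions nearest to *Klf4*, a zinc finger factor gene, 4 were lower in BM and 2 higher in LI, and of 13 nearest to *Tox*, a factor of ILC development, 3 were lower in BM and 2 higher in LI. Of 13 nearest to *Itga4*, which encodes the α4 integrin chain, 1 each was higher in BM, higher in SI, lower in lung and lower in SI. Of 19 nearest to *Maf*, 8 differed, against 61.2% of TSS-distal and 44.2% of all regions, and single-tissue calls were absent. Around *Klf4*, *Tox*, *Itga4*, *Maf* and *Gata3* the regions within 1 kb of the start did not pass the F test, while the *Btg1* promoter, like that of *Rora*, was higher in BM. *Btg1* encodes an antiproliferative protein. The most open of the regions nearest to it, chr10:96460608-96461208, had 36.8 and 46.6 CPM in lung, 24.9 and 35.2 CPM in LI and 11 to 13.4 CPM in BM, pancreas and SI. *Runx2*, the gene of a Runt factor, had a region at chr17:44569035-44569700 with 26.5 and 32.8 CPM in LI, 13.4 to 15.6 CPM in pancreas and SI, 8.94 and 6.98 CPM in lung and 5.53 and 6.81 CPM in BM.

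Antigen receptor genes are long and hold many segments, so 98 of the TSS-distal regions lay inside them. As a group they differed less often, with 31 of 98 (31.6%) called among the 5 tissues, against 61.2% of TSS-distal and 44.2% of all regions. *Tcra* held 42, of which 18 differed, close to the share over all regions. There 6 were higher in BM, where the shares were 4.2% of TSS-distal and 4.5% of all regions. *Igh* held 36, of which 9 differed. *Tcrg* held 13, with 4 that differed, and *Tcrb* and *Igk* held 2 and 5, with none called by the F test in edgeR. The 5 BM-higher calls in the *Tcra* gap were 0 to 5 when single libraries were left out and 4 to 12 under other scalings. The levels of T cell markers were given above, no B cell marker had a region, and their part in these counts was not tested.

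TSS-distal regions of the same gap resembled each other more the nearer they lay. Over 10 libraries, the median Pearson correlation of the log2 levels was 0.60 for 771 pairs under 5 kb apart, 0.46 at 5 to 20 kb, 0.35 at 20 to 100 kb, 0.29 at 100 to 500 kb and 0.13 beyond 500 kb, against 0.086 over all pairs. Neighbouring regions share libraries, base composition and depth, so this is a description of 10 libraries. Averaged over the pairs of single libraries of different tissues, the correlation over the 3122 regions was highest between lung and pancreas (0.850, with single pairs at 0.815 to 0.879) and lowest between BM and LI (0.655, 0.632 to 0.679). The region most like Sp3-Ola1 was Lurap1l-Mpdz (Pearson 0.99 over 10 libraries), with 3.23 and 2.85 CPM in BM and 0.608 to 1.31 CPM elsewhere. The region most like the pancreas-specific one in *Ctnnd2* was one in *Rora*, at chr9:69173796-69174406 (0.96), with 23.3 and 24.2 CPM in pancreas and 6.60 and 6.17 CPM in SI.

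The letters of several factors' motifs were more frequent in TSS-distal regions than in the table as a whole. Each was searched on both strands in the central 500 bases. The GATA factor letters AGATAA were found in 38.8% of TSS-distal regions and 24.7% of all regions, and the RUNX letters TGTGGT in 49.5% and 39.1%. The AP-1 letters TGANTCA were found in 34.1% and 23.2%, and the ROR letters TAGGTCA in 7.4% and 5.01%. KLF and SP letters (CCCGCCC or CCACACCC) were rarer, 9.55% against 25.8%, as were those of E-boxes (CAGCTG or CACCTG), 45.5% against 49.9%, while ETS letters (CCGGAA or CAGGAA) were alike, 62.0% against 59.9%. GC content, given above, moves with these shares, and its part in them was not tested. At 10 to 100 kb from a TSS the shares were mostly between those of TSS-distal and all regions, with 30.9% for GATA, 46.8% for RUNX, 29.3% for AP-1, 5.99% for ROR and 12.9% for KLF and SP. They were 50.5% for E-boxes and 60.4% for ETS letters there, and GATA was at 9.37% within 1 kb.

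Between tissues the letters differed as well. GATA was found in 59.8% of the 92 regions higher in pancreas, 51.1% of the 131 higher in BM and 51.4% of the 212 lower in SI, but in 30.2% of the 106 higher in LI and 29.3% of the 58 higher in SI. AP-1 was found in 54.7% of those higher in LI, 51.7% of the 319 lower in BM and 48.9% of those higher in pancreas, against 22.9% of those higher in BM and 22.4% of those higher in SI. ROR was found in 15.1% of those higher in LI. E-box letters were found in 63.8% of those higher in SI and in 30.1% of the 113 lower in lung. The CTCF motif was searched only as an exact match to a consensus of its core, with alternatives at some positions. It was in 3.14% of TSS-distal regions, 5% of all regions and 7.18% of the 1212 TSS-distal regions that did not pass the F test. None of those higher in BM, LI or pancreas had it, and 2.08% of the 48 higher in lung and 1.72% of the 58 higher in SI did. None of those lower in BM, pancreas or SI had it either, and 0.885% of the 113 lower in lung did. At these set sizes a few regions move the shares.

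**Figure D5:**
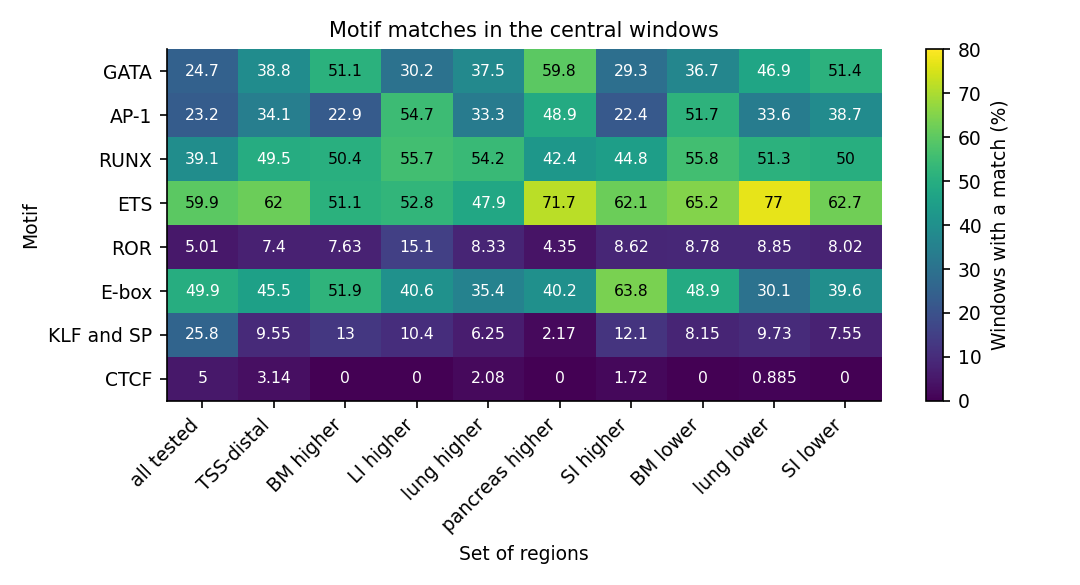
Share of regions with at least 1 motif match on either strand in the central 500 bases (colour and number, %), for 8 motifs (rows) over all regions tested, all TSS-distal regions and 8 sets of them called higher or lower in 1 tissue (columns). GATA reaches 59.8% in the regions higher in pancreas and AP-1 54.7% in those higher in LI.

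Beside the mitochondrial-like regions, a few TSS-distal regions had levels far above the rest. Chl1-Gm21054 (chr6:103648927-103649430, inside the adhesion gene *Chl1*) had 1295 to 6396 CPM, and its replicates differed by more than 2-fold in LI and pancreas. A pair between *Esp15* and *Esp38* on chromosome 17, one inside *AY036118*, had 223 to 949 CPM, highest in BM and SI. Each of the pair matched 1 place in the assembly, and copies that the assembly lacks could not be counted. Among the 12 genes with most regions, the most open were the *Bach2* region described above, with 63.0 to 172 CPM, and a *Rora* region at chr9:69034271-69034822, with 50.2 to 152 CPM. At the other end of variation, 4930459C07Rik-Btg1 (chr10:96374389-96374940) had 48.3 to 65.5 CPM in the 10 libraries, and 4930554C24Rik-Tent5a (chr9:85096428-85096970) had 12.2 to 23.9 CPM (edgeR F test, adjusted p 0.951 and 0.965). The values beside the limits of distance and repeats overlapped. Just inside the distance limit, Acsl4-Tmem164 on the X chromosome had 0.279 to 12.5 CPM, and just outside it, Pigk-St6galnac5 at 99.97 kb had 1.76 to 7.01 CPM. At the repeat limit, a Cxcr4-Thsd7b region with 49.8% masked had 0.906 to 15 CPM, and Sash1-Samd5 with 50.0% masked, just outside, had 0.626 to 12.9 CPM.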

How the data were processed

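Raw counts of ATAC-seq reads per region in 10 libraries were analysed. Per the labels and the study's methods, the authors aligned reads with Bowtie2 2.2.9 to mm10, kept uniquely mapped reads, called peaks with MACS2 2.1.1, kept peaks present in both libraries of a tissue, merged them and deposited whole-number counts per merged region. The submitters' processing notes also name FastQC 0.11.9, SAMtools 1.8 and DESeq2.

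All 49981 regions with at least 1 count were fitted together in edgeR 4.0.16 (R 4.3.3) by quasi-likelihood, with TMM scaling, the tissue as factor and 5 residual degrees of freedom. Adjusted p-values are Benjamini-Hochberg over all regions. The standard error of a log2 fold change is its size over the square root of the F statistic. CPM is the count scaled to a common library size by the total times its TMM factor, and log2 levels of single libraries have 0.1 added. Distances, gene bodies, GC content and soft-masking came from the RefSeq annotation and genome of GRCm38, and copies and mitochondrial likeness from BLAST 2.17.0 (at least 100 bases at 80% identity to the mitochondrial genome). Region positions are as the table gives them, and positions of printed sequences count from 1. Fits were tested on simulated data.

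Named regions followed a rule: per tissue, the 3 with the largest smallest fold and both libraries above the other 8, and the 1 lowest; 2 intestinal higher and 1 lower; the 3 highest, 2 steadiest and 2 farthest; the gap with most regions; the most open region of the 12 listed genes with most regions; and those at each limit. Other regions and gaps were named after their values were seen. The regions, gene list, markers and motifs were chosen with earlier results of these data known. Libraries are pools of mice, and p-values measure only the spread between these pools. Alternatives were library size alone, DESeq2 size factors, a count filter, a replicate block, removal of a trend in mean count or in GC content with width, 4-library fits in edgeR and DESeq2 1.42.0, adjusted p or log2 fold limits, other distances and repeat limits, and leaving out each library.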

Additional observations from a re-analysis of the deposited data

How the results depend on the processing

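Of 260 values of the shares of TSS-distal regions called, recomputed under alternatives other than leaving out a library, 214 were within 1.5 times the share reported and 46 were not. The shares that differed among the 5 tissues (61.2%) and in pairs of tissues (25% over the 10 pairs) stayed within it in all. With library size alone, the share higher was 3.91% in SI, 2.98% in lung, 2.11% in LI and 1.92% in pancreas, and the share lower 0.128% in LI and 2.05% in lung. With the trend in GC content and width removed, it was 8.01% higher in BM, 1.99% in LI, 2.85% in lung and 3.14% in SI, and 0.0961% lower in LI, 1.47% in pancreas and 1.99% in the intestine. With the trend in mean count removed, an alternative chosen after the data were seen, it was 2.88% higher in lung and 1.73% lower in the intestine. Fits on the 4 libraries of each pair gave 2.53% higher in lung in edgeR, and 1.99% lower in lung and 3.78% lower in SI in DESeq2. An adjusted p in each contrast gave 2.53% higher in BM, 0.609% in lung, 0.705% in LI, 0.641% in SI and in pancreas and 0.801% in the intestine, and 0% lower in LI, 0.833% in lung, 0.352% in pancreas, 3.62% in SI and 0.384% in the intestine. A log2 fold change above 1 gave 2.75% higher in BM, 0.737% in lung, 1.6% in LI, 1.31% in pancreas and 1.99% in the intestine, and 0% lower in LI, 2.11% in lung, 0.48% in pancreas, 4% in SI and 0.448% in the intestine. Both are stricter rules by construction. Over 50 kb from a TSS 0.0516% were lower in LI, over 200 kb 0% were lower in LI and 0.531% higher in SI, and 0% were lower in LI with predicted transcripts included or with a stricter limit on soft-masking. Outside every gene, also chosen after the data were seen, 0.0727% were lower in LI and 0.436% in pancreas. The causes were not tested.

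Leaving out single libraries gave 49.1 to 64.9% for the difference among 5 tissues and 18.1 to 27.2% over the 10 pairs. The shares higher and lower were 2.56 to 4.32% and 8.07 to 11% in BM, 2.24 to 3.94% and 0.032 to 0.256% in LI, 0.705 to 2.02% and 1.70 to 4.55% in lung, 1.31 to 3.49% and 0.48 to 0.993% in pancreas, 1.28 to 2.37% and 5.35 to 8.52% in SI, and 1.76 to 3.49% and 0.705 to 1.28% in the intestine. A tissue left with 1 library was assumed to vary like the others. Replicate differences of 2 tissues correlated at −0.22 to 0.20 (4 of 10 over 0.1), with every pair that included pancreas negative. These values cannot decide whether libraries of the same replicate number were processed together. With the number as a replicate block, 61.9% differed among tissues and 25.6% over the pairs, and no share moved by over 1.5 times. Of 380 values for named regions, 378 stayed on their side of the threshold and 2, both for the region lower in lung between *Sall1* and *Tox3*, did not. With 2 libraries a tissue and a median count of 50 to 142.5 per TSS-distal region in a library, small differences could not be seen.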

Other observations

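Some TSS-distal regions repeat a short unit along their length, which was looked at after the region beside *Gata3* had been seen. For each region, the shift of 10 to 100 bases was found at which most of its bases matched themselves. In 21 of the 3122 regions more than 60% of bases matched at that shift. Of these, 13 (61.9%) differed among the 5 tissues, close to the share of the other 3101, and their replicates lay farther apart, with a median difference of 0.67 (log2) against 0.34. Ccdc3-Camk1d on chromosome 2 matched itself in 100% of bases at a shift of 43 bases, with 33.0 and 27.8 CPM in LI and 8.66 and 6.49 CPM in BM. Drosha-Cdh6 on chromosome 15 matched in 97.3% at a shift of 62 bases and held 8 AP-1 matches, and its LI replicates had 11.7 and 2.91 CPM. The lung-specific Mtpap-Jcad region matched in 79.7% at a shift of 49 bases, and the LI-specific region beside *Gata3*, with 7 AP-1 matches over its full length, in 59.1% at 61 bases.

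AP-1 letters were found 3 or more times in 52 TSS-distal regions (1.67%, against 0.852% of all regions). The most, 17, were in a region between *Gmpr* and *Atxn1* at chr13:45623732-45624262. It had 35.7 and 44.6 CPM in lung, while the SI replicates, at 9.44 and 64.7 CPM, stood on both sides of that. How uniquely mapped reads fall on repeated units, and whether this touches these counts, was not tested.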
